A study of Mus musculus with 12 samples.

Results

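The 10 genes described here encode transporters by which hepatocytes move bile acids, drugs and conjugated organic anions between blood and bile. They were chosen by name, and all 10 were matched by Ensembl identifier among the 49398 genes of the deposited table and passed the filter on low counts, which kept 13814 genes. The 5 uptake carriers are Slc10a1, Slco1a1, Slco1a4, Slco1b2 and Slc22a7, and the 5 export pumps are Abcb11, Abcb1a, Abcc2, Abcc3 and Abcc4. Liver messenger RNA was sequenced in 12 wild-type C57BL/6J mice, 9 months old when the diets began, which ate AIN-93G chow for 8 weeks. The chow held no VLCPUFA concentrate oil (CTRL), 1% (w/w) of that oil (VLC1) or 5% (w/w) of it (VLC5). Percent of oil below counts this concentrate only and not other fat in the chow. VLCPUFA are very-long-chain polyunsaturated fatty acids, here in a fish oil. Each diet had 4 livers, from 2 females and 2 males, taken after a fast of 5 hours. Livers are named by replicate number, females first: N979, N980, N967 and N968 in CTRL, N983, N984, N971 and N972 in VLC1, and N987, N988, N975 and N976 in VLC5.

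Bile acids and many drugs enter the hepatocyte from blood through carriers in the basolateral membrane, above all the sodium-taurocholate carrier and the organic anion transporting polypeptides (OATPs). Pumps of the ATP-binding cassette (ABC) family then export them, either across the canalicular membrane into bile or back across the basolateral membrane into blood. In liver, genes on both sides of this route are known to respond to the bile acid receptor FXR, to the xenobiotic receptors PXR and CAR and to the oxidant sensor NRF2, and several OATP genes differ between male and female mice.

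Libraries held 5291385 to 15674130 estimated reads, with 5291385 to 11132269 in CTRL, 6275571 to 12317219 in VLC1 and 8723052 to 15674130 in VLC5. Of 7 hepatocyte markers none was at 0 in any diet, and their summed level was 106000 to 177000 CPM (counts scaled to library depth) in CTRL, 102000 to 118000 CPM in VLC1 and 91500 to 108000 CPM in VLC5. Most of this sum was the single gene Alb, with 78720 to 146100 CPM in CTRL, 73800 to 93280 CPM in VLC1 and 70310 to 88170 CPM in VLC5. In whole liver, fewer cells of a type and less RNA per cell cannot be told apart. Long noncoding genes took 0.646 to 1.63% of reads in CTRL, 0.685 to 1.91% in VLC1 and 0.676 to 1.24% in VLC5. A score of 12 circadian clock genes, in SD units, was -2.76 to -1.07 in CTRL, -0.764 to 0.986 in VLC1 and 0.613 to 2.39 in VLC5. The oil diets therefore did not overlap CTRL in this score, and since the hour at which livers were taken is not given in the sources used here, diet and phase of the clock cannot be told apart.

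Start regions are printed for 4 genes, chosen after the values were seen for their response to the oil (Abcc4), their use of 2 starts (Slc10a1) or their difference between the sexes (Slco1a1 and Slco1a4). The RefSeq table (mouse build GRCm38.p6) gave windows, from 250 bases before to 50 bases after an annotated start, for 8 of the 10 genes, 10 windows in all; Slc22a7 and Abcc3 are named only. Capitals mark matches, on either strand, to the NRF2 core TGACNNNGC, the nuclear receptor hexamer AGGTCA, the E-box CACGTG, the D-box TTATGNAA or the STAT motif TTCNNNGAA, and no matches overlap in the windows printed. The window of Abcc4, the pump with the largest rise, lies at chr14:118706170-118706469 on the minus strand, and it is 72.7% G or C with 41 CpG.
Abcc4: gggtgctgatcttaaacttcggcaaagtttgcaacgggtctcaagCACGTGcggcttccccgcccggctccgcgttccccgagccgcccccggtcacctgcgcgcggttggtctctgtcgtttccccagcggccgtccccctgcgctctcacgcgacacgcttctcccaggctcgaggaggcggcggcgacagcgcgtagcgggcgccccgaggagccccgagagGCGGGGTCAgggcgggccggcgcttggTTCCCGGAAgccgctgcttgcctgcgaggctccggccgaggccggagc
It holds the E-box at position -205, the NRF2 core at -25 and the STAT motif at 3, counted from the annotated start. Over the 12 libraries 71.0% and 28.2% of Abcc4 reads were assigned to the 2 coding transcripts that begin there, and 1 read to the transcript that begins at the other Abcc4 window, at chr14:118676882-118677181, which is not printed. The coding transcript with 28.2% had 0 reads in every VLC1 library and 26 to 159 per VLC5 library. In CTRL it had reads only in the female N980 (26). Slc10a1 has an upstream start at chr12:80968656-80968955 and a downstream start at chr12:80968030-80968329, both on the minus strand.
Slc10a1 upstream: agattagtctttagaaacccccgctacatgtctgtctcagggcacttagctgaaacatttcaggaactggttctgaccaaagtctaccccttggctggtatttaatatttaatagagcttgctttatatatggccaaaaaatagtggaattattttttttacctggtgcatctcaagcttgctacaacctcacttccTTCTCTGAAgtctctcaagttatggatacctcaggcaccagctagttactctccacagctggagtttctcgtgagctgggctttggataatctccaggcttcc
Slc10a1 downstream: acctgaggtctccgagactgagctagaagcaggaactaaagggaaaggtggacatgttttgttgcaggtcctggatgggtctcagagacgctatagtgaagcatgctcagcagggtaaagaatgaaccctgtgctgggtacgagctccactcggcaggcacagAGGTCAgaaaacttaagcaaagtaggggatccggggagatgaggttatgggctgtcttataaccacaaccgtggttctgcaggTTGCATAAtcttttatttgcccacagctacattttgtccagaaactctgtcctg
The downstream start has the D-box at position -4 and the nuclear receptor hexamer at -87, and the upstream start has the STAT motif at -53. The OATP genes Slco1a1 and Slco1a4, which differed most between the sexes among the 10 transporters, have windows at chr6:141946913-141947212 and chr6:141856171-141856470, both on the minus strand.
Slco1a1: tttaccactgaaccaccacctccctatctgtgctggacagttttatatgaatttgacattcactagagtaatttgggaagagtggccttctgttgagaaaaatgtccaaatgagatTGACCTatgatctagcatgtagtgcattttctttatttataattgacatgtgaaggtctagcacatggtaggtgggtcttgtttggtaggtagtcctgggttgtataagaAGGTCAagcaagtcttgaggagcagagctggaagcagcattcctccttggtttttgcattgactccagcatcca
Slco1a4: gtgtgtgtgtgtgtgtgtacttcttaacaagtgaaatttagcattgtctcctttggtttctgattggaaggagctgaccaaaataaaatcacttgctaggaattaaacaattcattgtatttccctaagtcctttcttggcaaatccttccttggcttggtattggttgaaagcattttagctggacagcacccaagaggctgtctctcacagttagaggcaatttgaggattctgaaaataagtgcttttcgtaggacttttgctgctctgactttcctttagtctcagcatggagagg
Slco1a1 has the nuclear receptor hexamer at -134 and -24, and the Slco1a4 window has none of the 5 motifs in these letters. Over the 12 libraries 39.2% of Slco1a1 reads were assigned to the transcript matched to its window. Another 57.3% were assigned to a coding transcript not matched to it, and no transcript was matched to the Slco1a4 window. The NRF2 core was present in 4 of the 10 windows (Abcb1a, Abcc2 and both of Abcc4), against 12.4% of 32851 windows of 300 bases in the table. The nuclear receptor hexamer was in 5 of 10 windows (16.3% of all), the STAT motif in 3 (8.30% of all), and the E-box and the D-box in 1 each (7.15% and 3.38% of all). Such matches describe the letters in the windows and are not evidence of binding.

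Per unit of transcript length, summed over all transcripts of a gene, Slc10a1, Abcb11 and Slco1b2 stood highest by median. The median over 12 livers was 470 TPM (transcripts scaled to length and depth) for Slc10a1, 343 TPM for Abcb11, 256 TPM for Slco1b2, 122 TPM for Abcc2 and 98.7 TPM for Abcc3. Slco1a1 (20.7 TPM), Slco1a4 (19.96 TPM), Slc22a7 (5.71 TPM), Abcc4 (1.12 TPM) and Abcb1a (1.04 TPM) followed. Neighbours in this order overlapped in their ranges over the livers, for example 257 to 634 TPM for Slc10a1 and 210 to 618 TPM for Abcb11. By median TPM, Abcc4 ranked 8 of 10 and Slc22a7 ranked 9 in VLC5, whereas Abcc4 ranked 10 and Slc22a7 ranked 8 in CTRL. Levels in TPM rest on annotated transcript lengths and on how the estimation shares reads among transcripts. The Abcb11 level includes a noncoding transcript of 648 bases, while its coding transcripts have 4893 to 5025 bases. In the VLC5 female N988 it took 1450 reads, against 4231 on the other transcripts, and held most of the Abcb11 TPM. In the CTRL male N967 it took 89 reads, against 3696. The rank of Abcb11 is therefore not that of its coding transcripts alone.

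**Figure D1:**
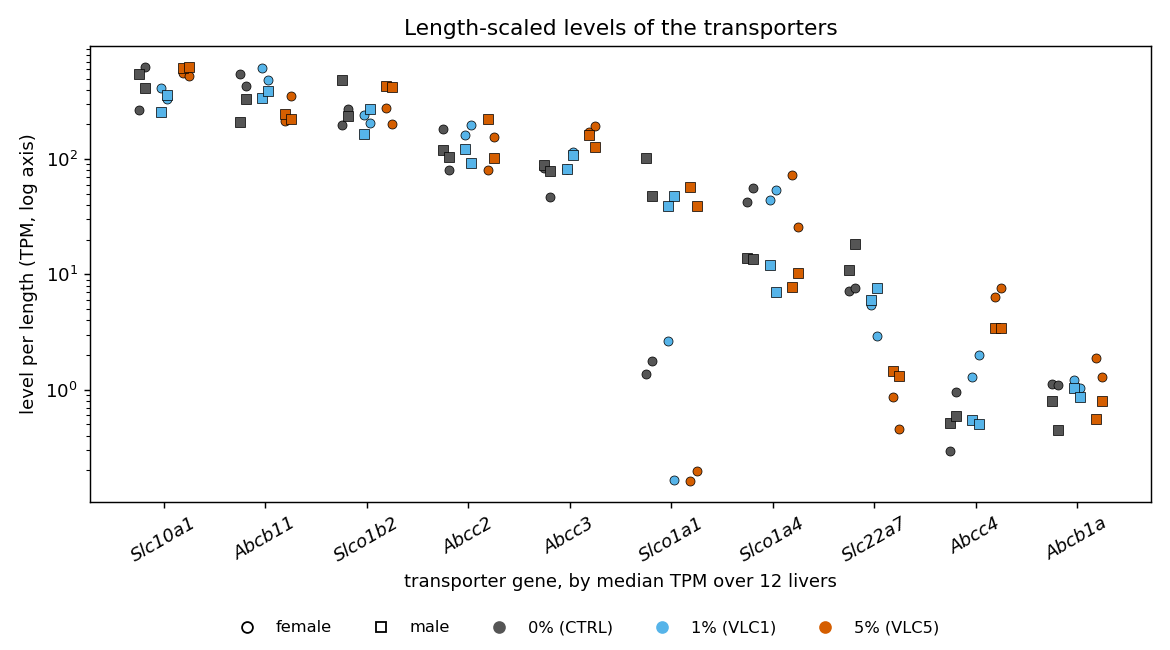
Length-scaled levels (TPM, log axis) of the 10 transporter genes in each of the 12 livers, ordered by median; circles are females, squares are males, and colours give the diet from 0% to 5% oil, left to right within each gene. The genes span from a median of 470 TPM for Slc10a1 to 1.04 TPM for Abcb1a, and Slco1a1 splits by sex.

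At the higher dose, 3 of the 10 transporters passed the threshold against the control diet: the uptake carrier Slc22a7 fell, and the export pumps Abcc4 and Abcc3, both of the basolateral membrane, rose. Slc22a7 averaged 1.27 ± 0.624 CPM in VLC5 and 16.6 ± 8.99 CPM in CTRL, Abcc4 averaged 18.0 ± 6.26 CPM in VLC5 and 2.19 ± 1.23 CPM in CTRL, and Abcc3 averaged 335 ± 28.4 CPM in VLC5 and 163 ± 52.3 CPM in CTRL (SD, n = 4 each). Among all genes tested, 340 passed in this comparison, or 2.46%. By edgeR's quasi-likelihood test with Benjamini-Hochberg adjustment over 13814 genes, Slc22a7 ranked 2 and Abcc4 ranked 4 of all genes by p. By role, 1 of 5 uptake carriers fell and none rose, with a median log2 fold change of -0.71, and 2 of 5 export pumps rose and none fell, with a median of 0.26; the median over all genes was 0.01. The clock score moves with this comparison. With the score as a further term in edgeR's fit, the log2 fold change was -3.59 ± 0.70 (SE) for Slc22a7 (adjusted p = 0.444), 3.60 ± 0.63 for Abcc4 (adjusted p = 0.262) and 0.49 ± 0.52 for Abcc3 (adjusted p = 0.851), and no gene of any kind passed.

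**Figure D2:**
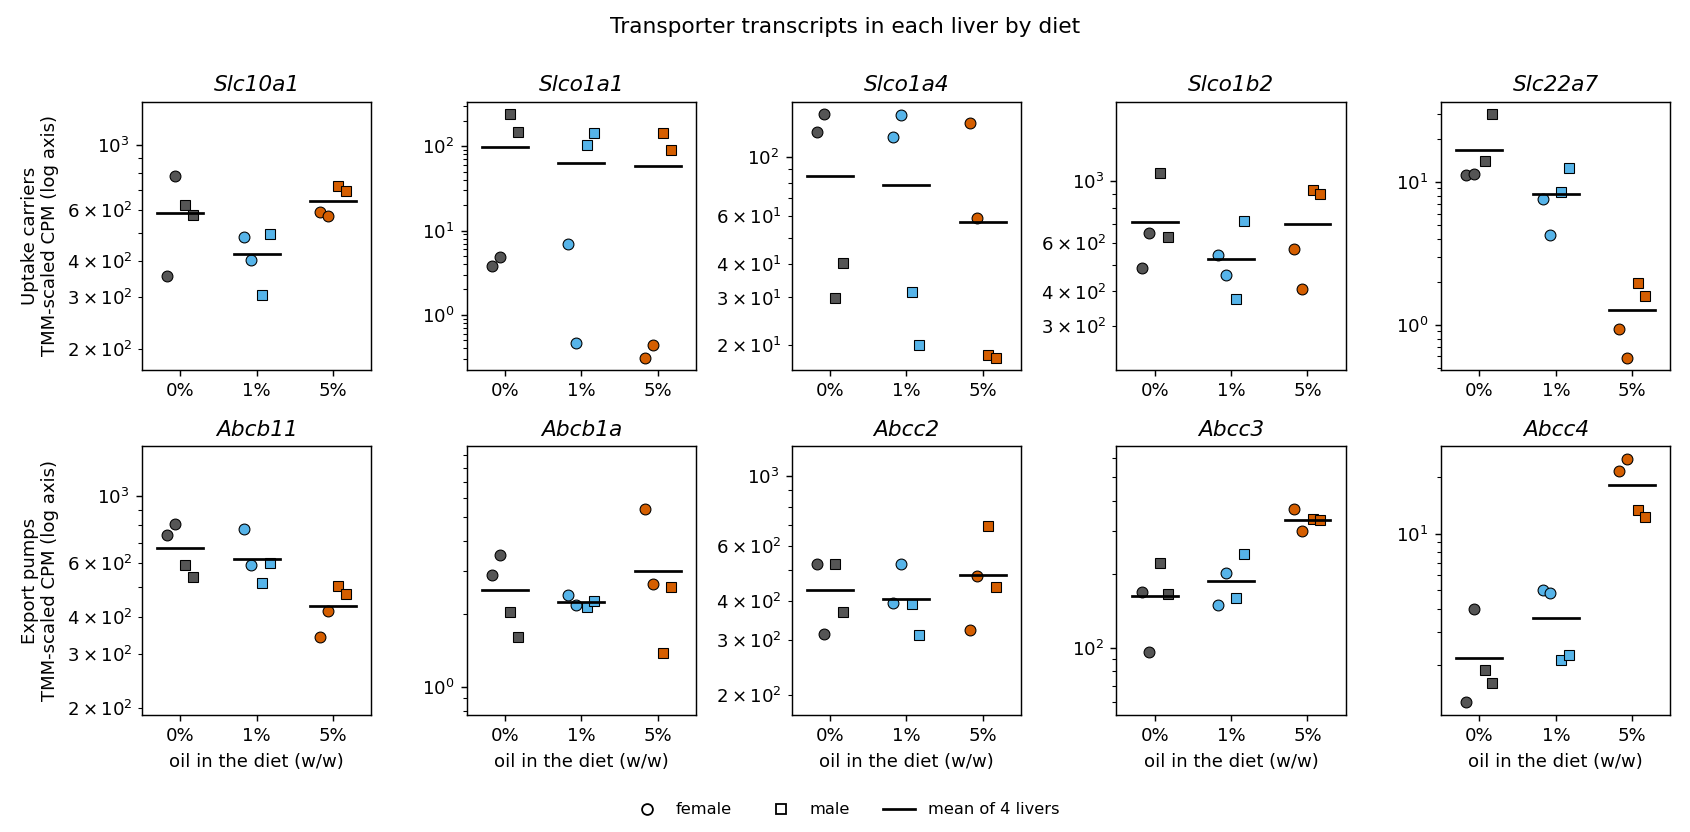
TMM-scaled CPM (log axes, which differ between panels) of each transporter in each liver by percent of oil in the diet, with uptake carriers in the upper row and export pumps in the lower; circles are females, squares are males, and lines are means of 4 livers. Slc22a7 lies below 2 CPM in every VLC5 liver and Abcc4 above 12 CPM, with no overlap with the other diets.

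Slc22a7 encodes organic anion transporter 2 (OAT2), a basolateral carrier of small organic anions. It had 11.2 and 11.3 CPM in CTRL females and 13.95 and 29.96 CPM in CTRL males, 7.62 and 4.22 CPM in VLC1 females and 8.45 and 12.4 CPM in VLC1 males, and 0.937 and 0.589 CPM in VLC5 females and 1.97 and 1.60 CPM in VLC5 males. Every VLC5 liver was below every liver of the other diets, while VLC1 overlapped CTRL in 1 liver, the male N972. The estimated reads behind the lowest values were few, 8 to 26 per VLC5 library against 62 to 279 per CTRL library. The log2 fold change was -3.73 ± 0.31 (SE) for VLC5 against CTRL (edgeR, adjusted p = 4.47e-05) and -2.74 ± 0.31 for VLC5 against VLC1 (adjusted p = 0.00102). With the clock score as a term the second of these was -2.68 ± 0.39 (adjusted p = 0.0481). For VLC1 against CTRL it was -0.99 ± 0.26 and missed the threshold in edgeR (adjusted p = 0.154), while DESeq2 gave -0.99 ± 0.30 (adjusted p = 0.0462). Leaving out each library in turn kept the VLC5 call, with log2 fold changes of -3.92 to -3.46 and adjusted p of 6.51e-05 to 0.000595.

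The canonical bile acid carrier stood apart from this. Slc10a1 (NTCP), the sodium-dependent importer of conjugated bile acids, had 355 to 784 CPM in CTRL, 305 to 495 CPM in VLC1 and 570 to 724 CPM in VLC5. The lowest control, the female N979, lay within the VLC1 range, and the VLC5 livers lay above all VLC1 livers but within the CTRL range. No contrast passed: the log2 fold change was 0.14 ± 0.23 for VLC5 against CTRL (edgeR, adjusted p = 0.862), -0.47 ± 0.23 for VLC1 against CTRL (adjusted p = 0.461) and 0.61 ± 0.23 for VLC5 against VLC1 (adjusted p = 0.187). The transcript from the upstream start printed above took 2.20 to 33.8% of Slc10a1 reads in CTRL, 0.817 to 14.2% in VLC1 and 14.1 to 33.9% in VLC5. The highest VLC1 share, in the male N972, lay within the CTRL range. The highest CTRL share was that of the male N967, and the other CTRL livers had at most 12.4%. Transcripts of a gene share reads by estimation, so no test was made.

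None of the 3 OATP carriers passed the threshold in edgeR between any 2 diets. Slco1b2, the most abundant OATP here, had 486 and 648 CPM in CTRL females and 629 and 1071 CPM in CTRL males, 541 and 459 CPM in VLC1 females and 377 and 717 CPM in VLC1 males, and 571 and 408 CPM in VLC5 females and 930 and 893 CPM in VLC5 males. The diets overlapped within each sex except that the VLC5 males lay above the VLC1 males. Its log2 fold change was -0.04 ± 0.24 for VLC5 against CTRL (edgeR, adjusted p = 0.968). Slco1a4 had 124 and 144 CPM in CTRL females and 29.9 and 40.3 CPM in CTRL males, 119 and 143 CPM in VLC1 females and 31.4 and 19.9 CPM in VLC1 males, and 134 and 59.0 CPM in VLC5 females and 18.3 and 18.0 CPM in VLC5 males. Both VLC5 males lay below all other males, and the VLC5 females spread on both sides of a CTRL female. The log2 fold change of -0.71 ± 0.24 for VLC5 against CTRL missed the threshold (edgeR, adjusted p = 0.155), and without the VLC5 female N987 it was -1.01 ± 0.21 (adjusted p = 0.0324). Slco1a1 is described with the sexes below; its log2 fold change was -1.39 ± 0.66 for VLC5 against CTRL (edgeR, adjusted p = 0.373), and with no filter on low counts it was -1.38 ± 0.24 and passed (adjusted p = 7.49e-07). With the clock score as a term its direction turned, to 1.52 ± 1.05 (edgeR, adjusted p = 0.729).

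Abcc4 (MRP4), a basolateral pump of conjugated bile acids and cyclic nucleotides that is scarce in healthy liver, had 1.27 and 4.0 CPM in CTRL females and 1.88 and 1.61 CPM in CTRL males, 5.00 and 4.84 CPM in VLC1 females and 2.13 and 2.27 CPM in VLC1 males, and 21.6 and 25.0 CPM in VLC5 females and 13.3 and 12.2 CPM in VLC5 males. All VLC5 livers lay above all others, and within each sex both VLC1 livers lay above both CTRL livers. These values rest on 115 to 345 estimated reads per VLC5 library, against 7 to 40 per CTRL library. The log2 fold change was 2.97 ± 0.27 for VLC5 against CTRL (edgeR, adjusted p = 8.77e-05), 2.37 ± 0.25 for VLC5 against VLC1 (adjusted p = 0.000846) and 0.60 ± 0.28 for VLC1 against CTRL (adjusted p = 0.449). With the clock score as a term the value for VLC5 against VLC1 was 2.63 ± 0.34 (adjusted p = 0.0481). Without each library in turn the value for VLC5 against CTRL was 2.71 to 3.26, with adjusted p of 3.1e-05 to 0.00111. The start region of Abcc4 printed above is the only one of the 10 windows with an E-box, and it also holds an NRF2 core. The windows of Abcb1a and Abcc2, which passed in no diet comparison, hold an NRF2 core too. Any part of these letters in the Abcc4 values was not tested.

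Abcc3 (MRP3), a basolateral pump of glucuronides, had 169 and 95.8 CPM in CTRL females and 223 and 166 CPM in CTRL males, 149 and 202 CPM in VLC1 females and 159 and 243 CPM in VLC1 males, and 371 and 301 CPM in VLC5 females and 335 and 332 CPM in VLC5 males. The VLC5 livers lay above all others, and VLC1 and CTRL overlapped. The log2 fold change was 1.06 ± 0.22 for VLC5 against CTRL (edgeR, adjusted p = 0.0212), 0.84 ± 0.22 for VLC5 against VLC1 (adjusted p = 0.0749; DESeq2 adjusted p = 0.0132) and 0.22 ± 0.22 for VLC1 against CTRL (adjusted p = 0.742). The call for VLC5 against CTRL is close to the threshold: it was lost without N987 (adjusted p = 0.0575), N988 (0.0508), N976 (0.0521), N980 (0.0524) or N968 (0.0696), with log2 fold changes of 0.89 to 1.21 over all 12 such fits.

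Abcb11 (BSEP), the canalicular bile salt export pump, lay lower in CPM at the higher dose without passing the threshold. It had 745 and 810 CPM in CTRL females and 593 and 539 CPM in CTRL males, 778 and 593 CPM in VLC1 females and 516 and 601 CPM in VLC1 males, and 342 and 418 CPM in VLC5 females and 505 and 476 CPM in VLC5 males. In CPM all VLC5 livers lay below all others, by a wide gap in females and a narrow one in males. In TPM the groups overlapped, with 209.8 to 552 TPM in CTRL, 336 to 618 TPM in VLC1 and 212 to 351 TPM in VLC5, and the CTRL male N967 was lowest of all 12 livers. A noncoding Abcb11 transcript took 2.35 to 28.4% of the reads of the gene in CTRL, 19.1 to 29.2% in VLC1 and 7.53 to 25.5% in VLC5. Being short, it weighs more in TPM than in CPM, and its part in the fold changes was not tested. The log2 fold change was -0.61 ± 0.19 for VLC5 against CTRL (edgeR, adjusted p = 0.115; DESeq2 -0.63 ± 0.19, adjusted p = 0.024; edgeR with the clock score as a term -0.039 ± 0.42, adjusted p = 0.99) and -0.50 ± 0.19 for VLC5 against VLC1 (edgeR, adjusted p = 0.184).

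Abcc2 (MRP2), the canalicular pump of glucuronide and glutathione conjugates, had 313 to 523 CPM in CTRL, 312 to 523 CPM in VLC1 and 323 to 691 CPM in VLC5. The diets overlapped in CPM, and the log2 fold change for VLC5 against CTRL was 0.16 ± 0.25 (edgeR, adjusted p = 0.849). The Abcc2 coding transcript of 8027 bases took 64.9 to 95.5% of the reads of the gene in CTRL, 59.5 to 76.8% in VLC1 and 80.6 to 95.9% in VLC5. In this share VLC1 and VLC5 livers did not overlap, and it was not tested. Abcb1a, a drug efflux pump of the P-glycoprotein kind found in bile canaliculi and in endothelium, had 1.61 to 3.50 CPM in CTRL, 2.13 to 2.39 CPM in VLC1 and 1.39 to 5.44 CPM in VLC5, with the highest value in the VLC5 female N987. Its log2 fold change for VLC5 against CTRL was 0.26 ± 0.33 (edgeR, adjusted p = 0.808). The summed level of 5 sinusoidal endothelium markers was 114 to 197 CPM in CTRL, 141 to 216 CPM in VLC1 and 94.8 to 143 CPM in VLC5, and its part in the Abcb1a values was not tested. Much of the Abcb1a signal did not come from the coding transcript: 13.3 to 62.5% of its reads in CTRL, 65.2 to 93.5% in VLC1 and 0 to 66.7% in VLC5 fell on intron-retaining transcripts. Reads on its other transcripts numbered 6 to 29 per CTRL library, 2 to 8 per VLC1 library and 6 to 76 per VLC5 library. Retained-intron transcripts of all genes took 2.02 to 5.19% of reads in CTRL, 2.37 to 5.12% in VLC1 and 2.03 to 4.84% in VLC5, and their part in the Abcb1a values was not tested. Abcb1a shares sequence with Abcb1b, and Slco1a1 with other Slco1a genes, so their values depend on how reads were shared out.

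**Figure D3:**
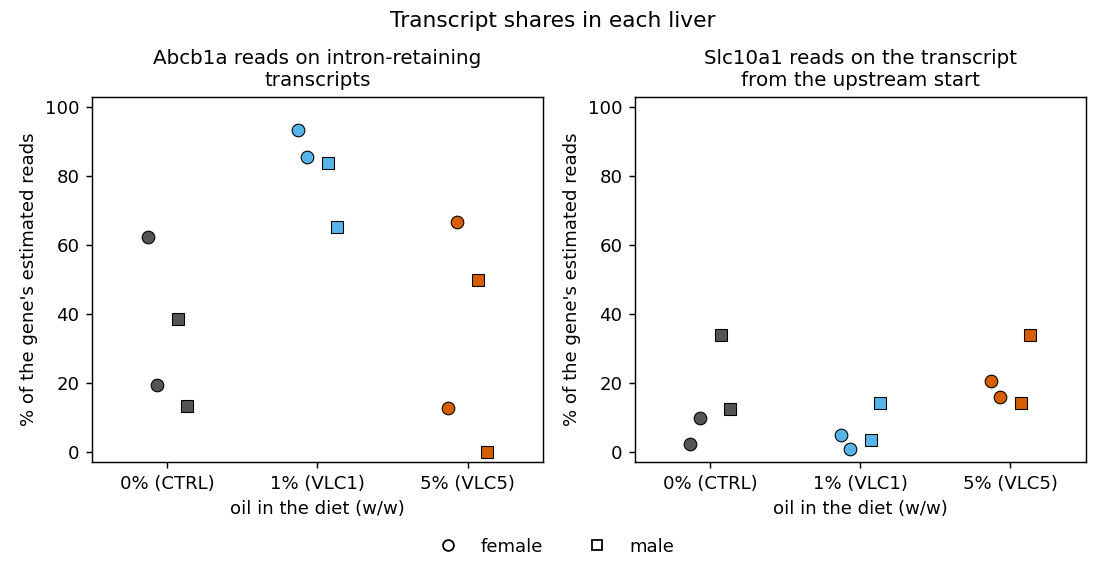
Share of estimated reads (percent, linear axis) in each liver that fell on intron-retaining transcripts of Abcb1a (left) and on the Slc10a1 transcript from the upstream start (right), by percent of oil in the diet; circles are females and squares are males. The Abcb1a share is 65.2 to 93.5% in VLC1 livers, while the Slc10a1 share is 14.1 to 33.9% in VLC5 livers and 2.20 to 33.8% in CTRL livers.

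The lower dose gave no call among the 10 transporters. In VLC1 against CTRL, edgeR passed 0 of 10 (31 genes, or 0.224%, passed over the whole table), 2 of 10 had an unadjusted p under 0.05 (Slc22a7 and Abcc4) beside 1530 genes in all, DESeq2 passed 1 (Slc22a7) beside 277 genes, and limma on the deposited CPM passed 0 beside 54 genes. All 5 uptake carriers had negative log2 fold changes, from -0.99 to -0.24 with a median of -0.39, and the export pumps ran from -0.11 to 0.60 with a median of -0.09, while the median over all genes was 0.00. With the clock score as a term 2 of the 5 uptake carriers had positive values, Slco1a1 at 1.53 and Slco1b2 at 0.10. In VLC5 against VLC1, 2 of 10 passed (Slc22a7 lower and Abcc4 higher) beside 184 genes in all, or 1.33%. VLC1 and VLC5 are both set against the same CTRL livers, so those comparisons are not independent.

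**Figure D4:**
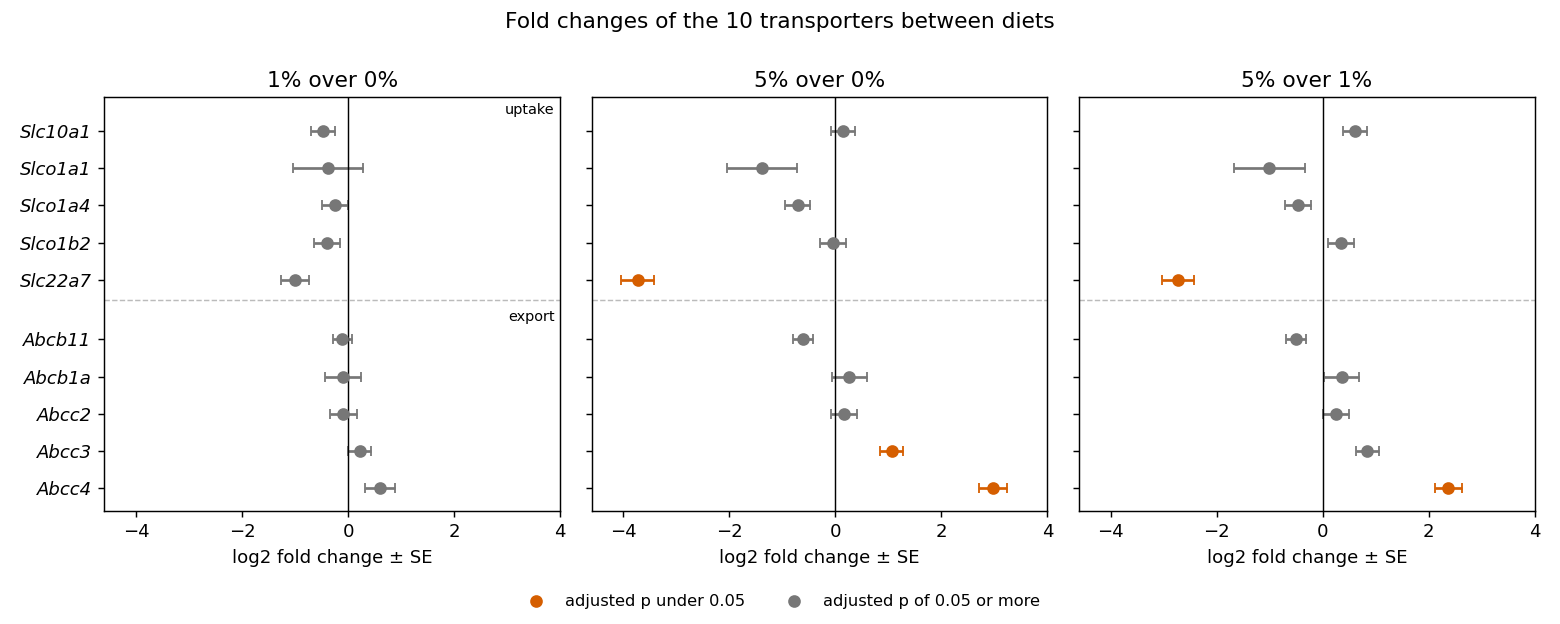
Log2 fold changes with SE of the 10 transporters for 1% over 0%, 5% over 0% and 5% over 1% oil, from edgeR fits on all 12 livers; orange points passed an adjusted p of 0.05. At 1% over 0% no point is orange, and at 5% over 0% Slc22a7 lies at -3.73, Abcc3 at 1.06 and Abcc4 at 2.97.

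When the oil content entered the fit as a numeric dose, 3 of 10 transporters had a slope past the threshold, where 308 genes, or 2.23%, did so over the table. The slope in log2 units per percent of oil was 0.59 ± 0.04 for Abcc4 (edgeR, adjusted p = 2.59e-05), which ranked 1 of all genes by p. It was -0.73 ± 0.06 for Slc22a7 (adjusted p = 3.59e-05) and 0.21 ± 0.04 for Abcc3 (adjusted p = 0.0136; 0.0624 without N987 and 0.294 with the clock score as a term). Abcb11 had a slope of -0.12 ± 0.04 that missed the threshold in edgeR (adjusted p = 0.0955; DESeq2 0.00952). These slopes rest on 3 doses and use the same livers as the contrasts above.

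Ratios of levels were taken for a few chosen pairs, and they do not describe the balance over all pumps and carriers. The ratio of Abcc4 to Slc22a7 in TPM was 0.0323 to 0.125 in CTRL, 0.0660 to 0.675 in VLC1 and 2.33 to 16.6 in VLC5, so Slc22a7 was the more abundant transcript in every CTRL and VLC1 liver and Abcc4 in every VLC5 liver. The ratio of basolateral Abcc3 to canalicular Abcb11 was 0.110 to 0.425 in CTRL, 0.134 to 0.277 in VLC1 and 0.548 to 0.808 in VLC5. Both levels include short noncoding transcripts, of 648 bases for Abcb11 and 567 bases for Abcc3, whose reads weigh more in TPM. This ratio therefore does not describe the coding transcripts alone. The ratio of Abcc3 to Abcc2, the other canalicular anion pump, overlapped between diets, at 0.460 to 0.750 in CTRL, 0.514 to 1.17 in VLC1 and 0.736 to 2.15 in VLC5. The Abcc2 level includes a coding transcript of 1926 bases beside the main one of 8027 bases. The ratio to Abcc2 therefore also depends on how reads were shared between them. These pairs were chosen after the values were seen, so the ratios are descriptions with no test.

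**Figure D5:**
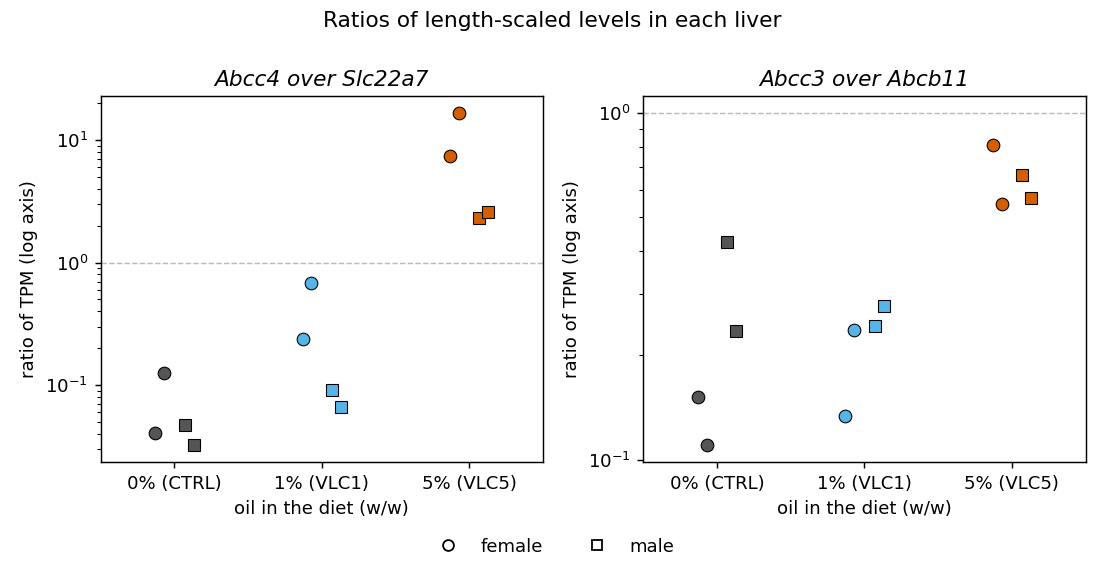
Ratio of length-scaled levels (TPM, log axes) of Abcc4 over Slc22a7 (left) and Abcc3 over Abcb11 (right) in each liver by percent of oil in the diet; circles are females, squares are males, and the dashed line marks a ratio of 1. VLC5 livers lie at 2.33 to 16.6 on the left and at 0.548 to 0.808 on the right, above every liver of the other diets. Levels are summed over all transcripts of a gene, with noncoding ones included.

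Between the sexes, 4 of the 10 transporters passed, where 1235 genes, or 8.94%, did so over the table. Slco1a1, an OATP known as male-predominant in mouse liver, had 0.313 to 6.85 CPM in the 6 females (median 2.14) and 90.1 to 242 CPM in the 6 males (median 144); female against male the log2 fold change was -5.90 ± 0.62 (edgeR, adjusted p = 0.00035). Slco1a4, an OATP known as female-predominant, had 59.0 to 144 CPM in females (median 129) and 18.0 to 40.3 CPM in males (median 24.9); its log2 fold change was 2.23 ± 0.20 (edgeR, adjusted p = 1.41e-05). In both genes no female overlapped any male. Slc22a7 was lower in females (log2 fold change -0.95 ± 0.23; edgeR, adjusted p = 0.0233) and Abcc4 was higher by 0.92 ± 0.21 (adjusted p = 0.0176). Both of these calls were close to the threshold: that of Slc22a7 was lost without N988 (adjusted p = 0.0524), N984 (0.0528), N972 (0.0606) or N968 (0.0665), with the long noncoding share as a term (0.202) and with the clock score as a term (0.0567), and that of Abcc4 was lost without N988 (0.0535) or N976 (0.0517).

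The VLC5 response was read within each sex from a fit with 6 groups, 2 livers each. In females 3 of 10 transporters passed against CTRL (255 genes, or 1.85%, over the table): Slc22a7 at -3.85 ± 0.48 (edgeR, adjusted p = 0.00452), Abcc4 at 3.05 ± 0.38 (adjusted p = 0.00467) and Abcb11 at -1.03 ± 0.22 (adjusted p = 0.0396). In the same contrast 1 of 7 hepatocyte markers and 1 of 5 sinusoidal endothelium markers fell, none of either list had a positive value, and the medians were -0.37 and -1.08; their part in these calls was not tested. In males 2 of 10 passed (25 genes, or 0.181%): Slc22a7 at -3.64 ± 0.45 (adjusted p = 0.0123) and Abcc4 at 2.87 ± 0.41 (adjusted p = 0.0224), while Abcb11 had -0.21 ± 0.22 (adjusted p = 0.999). Slco1a1 in females had 3.81 and 4.90 CPM in CTRL, 6.85 and 0.468 CPM in VLC1 and 0.313 and 0.442 CPM in VLC5, the lowest of these resting on 3 to 6 estimated reads, and its log2 fold change for VLC5 against CTRL was -3.52 ± 0.93 in females (adjusted p = 0.0956) and -0.72 ± 0.60 in males (adjusted p = 0.999).

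The difference between the sexes in the response was tested directly and passed for none of the 10 transporters and none of the 13814 genes (0%) at either dose in edgeR. For VLC5 the difference of log2 fold changes, female minus male, was -2.80 ± 1.13 for Slco1a1 (unadjusted p = 0.0325 in edgeR's test, adjusted p = 0.95) and -0.82 ± 0.31 for Abcb11 (unadjusted p = 0.0217, adjusted p = 0.894); these were the 2 members with an unadjusted p under 0.05, beside 645 genes in all. With no filter on low counts the difference for Slco1a1 was -2.79 ± 0.56 and passed (edgeR, adjusted p = 0.000216). For VLC1 no member and 517 genes had an unadjusted p under 0.05. DESeq2 passed 43 genes for VLC5 and 6 for VLC1, none of them among the 10.

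Other genes of the same route are read against 2.46% of all genes called in VLC5 against CTRL and 8.94% between the sexes. Of 22 other solute carriers tested (27 listed, mostly for uptake, with the bile acid exporter genes Slc51a and Slc51b among them), 1 fell in VLC5 against CTRL and none rose: Slc10a2 (ASBT), the apical sodium-dependent bile acid carrier of ileum and bile ducts, at -2.63 ± 0.42 (edgeR, adjusted p = 0.00781). It had 2.12 and 0.883 CPM in VLC5 females and 13.1 and 10.14 CPM in VLC5 males, against 11.4 and 26.9 CPM in CTRL females and 39.8 and 46.3 CPM in CTRL males. The summed level of 6 bile duct cell markers was 21.4 to 29.9 CPM in VLC5 and 24.0 to 37.7 CPM in CTRL, none of the 5 tested passed, and their part in the Slc10a2 value was not tested. This sum mainly follows Slc4a2, which had 16.2 to 25.1 CPM in VLC5 and 17.4 to 29.4 CPM in CTRL. Krt7, Krt19 and Epcam had at most 1.45 CPM in any of these livers. The median log2 fold change of the list was -0.08. Of 16 other export pumps and flippases tested (with the flippase subunit Tmem30a and the channel subunit Abcc9 counted), none passed in VLC5 against CTRL (median 0.02), among them the phospholipid flippase Abcb4 at -0.06 ± 0.16 and the sterol pumps Abcg5 at 0.03 ± 0.28 and Abcg8 at 0.22 ± 0.24. Of 11 scaffold and trafficking genes of the canalicular membrane tested, none passed (median 0.08).

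Of 20 regulators of transporter genes tested, 1 fell in VLC5 against CTRL and none rose: Esr1, the oestrogen receptor alpha, at -1.36 ± 0.24 (edgeR, adjusted p = 0.00919). The bile acid receptor FXR (Nr1h4) had 0.50 ± 0.16 (edgeR, adjusted p = 0.141), its target SHP (Nr0b2) had -1.96 ± 0.61 (adjusted p = 0.142) and NRF2 itself (Nfe2l2) had -0.16 ± 0.18 (adjusted p = 0.783). PXR (Nr1i2) had 46.5 to 83.3 CPM in VLC5 and 53.0 to 120 CPM in CTRL. CAR (Nr1i3) had 141 to 434 CPM in VLC5 and 114 to 533 CPM in CTRL, and neither receptor passed. Such RNA levels do not measure the activity of the proteins. The median of the list was 0.05. In VLC1 against CTRL none of these 4 lists had a call in edgeR. Between the sexes, 4 of the 22 other solute carriers were higher and 5 lower in females, led by Slc22a26 at 6.55 ± 0.31 (edgeR, adjusted p = 3.68e-08), Slc22a28 at -6.44 ± 0.50 (3.57e-06), Slc22a27 at 2.56 ± 0.24 (2.26e-05) and Slc10a2 at -1.75 ± 0.34 (0.0088). Of the 16 other export pumps and flippases, 3 were lower in females, Abcg2 at -1.995 ± 0.185 (edgeR, adjusted p = 1.58e-05), Abcb4 at -0.54 ± 0.14 (0.0261) and the flippase subunit Tmem30a at -0.74 ± 0.18 (0.024). Among the regulators only Cux2, a female-predominant repressor, passed, at 6.36 ± 0.71 (edgeR, adjusted p = 0.000457).

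With the mean of each sex taken out, the genes most like Slc22a7 over the 12 libraries were Apof (Pearson r = 0.972), C9 (0.965), Pde9a (0.957), Apon (0.952) and Ifitm3 (0.941). Those most like Abcc4 were Creg1 (r = 0.973), Ugt2b5 (0.956), Cbr3 (0.946), Htatip2 (0.942) and Akr1c19 (0.934). These correlations describe libraries that share the diets and carry no test. In the authors' deposited table of 261 genes, whose contrast is not named, 3 of the transporters are listed: Slc22a7 at -2.21 in log2 fold change (adjusted p = 0.00578), Abcc4 with 1.91 (0.0139) and Abcc3 with 0.79 (0.0974). The values of the authors' deposited table lay nearest to the contrast of both oil diets against CTRL in edgeR, with a median absolute difference of 0.128 in log2 fold change over the 261 genes; that contrast gave -2.36 ± 0.23 for Slc22a7, 1.79 ± 0.25 for Abcc4 and 0.64 ± 0.19 for Abcc3.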

How the data were processed

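Messenger RNA of 12 livers was sequenced, and the analysis began from the tables that the authors deposited. The authors deposited estimated counts for 49398 genes and 141450 transcripts; kallisto, edgeR and limma and the build GRCm39 are named in the submitters' processing notes without versions. The deposited CPM table holds 11339 genes, and the authors' deposited table of 261 genes gives log2 fold changes and p-values, per the file headers; 12 columns of per-library values in it, adjusted by a step not given in the sources used here, were not used. Symbols were matched for 48845 genes.

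Estimated counts (11.7% not whole) were rounded and fitted in R 4.3.3 with edgeR 4.0.16: filterByExpr over the 6 diet-by-sex groups left 13814 genes, with TMM scaling and a robust quasi-likelihood fit of diet and sex over all 12 libraries. The common coefficient of variation was 0.266. Tests were 2-sided with Benjamini-Hochberg adjustment over all genes and a threshold of 0.05, and each SE was obtained by dividing the log2 fold change by the root of its F statistic. CPM in the text are TMM-scaled, with the SD over livers. Each replicate number was taken as 1 mouse. The p-values weigh each difference against the spread between these livers, estimated with information shared over genes. The series design text states 6 samples per group, while the labels give 4 libraries per diet. TPM were computed from transcript counts and lengths in GENCODE vM21 (GRCm38), which matched 97.6% of transcripts and 99.1 to 99.4% of reads; no coordinates of GRCm39 are given. The scripts were tested on simulated data. Alternatives were RLE scaling, 2 other filters, DESeq2 1.42.0, limma 3.58.1 on log2(deposited CPM + 0.5), summed transcript counts, 3 changes of covariates and leaving out each library. The genes and lists were chosen with earlier results of these data known; all 10 transporters are named, and from each list up to 4 genes past the threshold by smallest p, with further members given as values. The genes Nr1h4, Nr0b2, Nfe2l2, Nr1i2, Nr1i3, Abcb4, Abcg5 and Abcg8 were named for their roles, after their values were seen. The clock score is the mean z-score of Dbp, Tef, Hlf, Per3, Nr1d1, Nr1d2, Bhlhe41 and Ciart minus that of Bmal1, Npas2, Clock and Cry1.

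No gene of the 7 hepatocyte markers passed in VLC5 or VLC1 against CTRL, and neither did any of the markers of bile duct cells (5 tested), Kupffer cells (6), sinusoidal endothelium (5), stellate cells (5), lymphocytes (5), pericentral hepatocytes (8) or periportal hepatocytes (8); of 4 erythroid markers 1 fell in VLC5. The median log2 fold change in VLC5 against CTRL was -0.77 for periportal, -0.60 for Kupffer, -0.50 for endothelial, -0.38 for hepatocyte and -0.24 for stellate markers. It was -0.16 for pericentral, -0.15 for bile duct, 0.12 for lymphocyte and -1.38 for erythroid markers, and 0.01 over all genes. In VLC1 against CTRL the medians ran from -1.01 (Kupffer) to 0.35 (lymphocyte). The part of these shifts in the transporter values was not tested. Of 8 periportal markers Sds was lower in VLC5 against VLC1 (edgeR, log2 fold change -2.22, adjusted p = 0.039), and Gls2 had a negative dose slope (-0.22 per percent of oil, adjusted p = 0.0407).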

Additional observations from a re-analysis of the deposited data

Results flagged for a closer look

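Over 30 groups of 4 livers (10 transporters in 3 diets), 1 value stood apart from its group by more than Dixon's criterion allows: Slc22a7 in the CTRL male N968 was 29.96 CPM, and the other CTRL livers had 11.24 to 13.95 CPM. Its gap to the nearest liver was 0.855 of the group's range, above the 95% critical value for 4 samples, and chance flags about 1 in 20 groups. Without N968 the log2 fold change of Slc22a7 was -3.46 for VLC5 against CTRL (edgeR, adjusted p = 0.00026), and the difference between the sexes no longer passed (-0.78, adjusted p = 0.0665).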

How the results depend on the processing

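Of the calls of single transporters, 227 alternative values kept direction and call and 21 kept direction but lost the call; no called value changed sign. Of values not called, 16 passed under an alternative and 53 changed sign, none of these with an adjusted p under 0.729. No paired analysis was possible because no 2 groups share a replicate number.

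Counts of all genes called moved most. In the order VLC5 against CTRL, VLC1 against CTRL, VLC5 against VLC1, slope and female against male, no filter gave 1011, 649, 1276, 1108 and 2375 genes, DESeq2 gave 749, 277, 707, 733 and 2079, and the clock score as a term gave 0, 1, 5, 3 and 538. For the sex differences in response, at VLC5 and VLC1, no filter gave 229 and 109 genes and DESeq2 gave 43 and 6. The long noncoding share as a term gave 574 genes (VLC5 against CTRL), 37 (VLC5 against VLC1), 530 (slope) and 327 (female against male). Without a sex term the counts were 107, 10, 8 and 124 in the first 4 comparisons. For VLC1 against CTRL the stricter filter gave 50 genes and limma 54, and limma gave 280 for VLC5 against VLC1. Of the 10 transporters, no filter called 5 in VLC5 against CTRL (Slco1a1, adjusted p = 7.49e-07, and Slco1a4, 0.044, beside the 3), 1 in VLC1 against CTRL, 4 in VLC5 against VLC1 and 1 in the sex difference at VLC5, DESeq2 called 1 in VLC1 against CTRL, the clock score left 0 in VLC5 against CTRL, and no sex term left 0 in VLC5 against VLC1 (Slc22a7 and Abcc4, adjusted p = 0.0553 each) and put Abcc3 at 0.0684 in VLC5 against CTRL. The causes were not tested.

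Leaving out each library gave 143 (without N976) to 497 (without N975) genes (VLC5 against CTRL), 13 (without N984) to 176 (without N979) (VLC1 against CTRL), 9 (without N971) to 605 (without N975) (VLC5 against VLC1), 84 (without N976) to 444 (without N975) (slope), 620 (without N967) to 2409 (without N980) (female against male) and 0 to 1 (sex difference at VLC1); transporters called ranged from 2 to 3, 0 to 0, 2 to 3, 3 to 3 and 2 to 5 in the first 5.

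In limma on log2(deposited CPM + 0.5) log2 values with a changed sign were Slco1b2 at 0.12 (VLC5 against CTRL), Slc10a1 at 0.0039, Abcc2 at 0.024 (female against male). With the long noncoding share as a term log2 values with a changed sign were Abcb1a at 0.26 (VLC1 against CTRL), Abcb1a at -0.061 (VLC5 against VLC1), Slc10a1 at 0.17 (female against male). With the clock score as a term log2 values with a changed sign were Slco1a1 at 1.52, Slco1b2 at 0.73, Abcb1a at -0.25 (VLC5 against CTRL), Slco1a1 at 1.53, Slco1b2 at 0.10, Abcb11 at 0.24, Abcc2 at 0.19, Abcc3 at -0.14 (VLC1 against CTRL), Slc10a1 at 0.008, Abcc2 at 0.0296 (female against male). Leaving out each library, the log2 values that crossed 0 ran, for VLC1 against CTRL Abcb1a from -0.21 to 0.034, Abcc2 from -0.26 to 0.065, and for VLC5 against CTRL Abcb1a from -0.074 to 0.43, Abcc2 from -0.068 to 0.33, Slc10a1 from -0.041 to 0.38, Slco1b2 from -0.16 to 0.13, and for dose slope Abcb1a from -0.0078 to 0.10, Abcc2 from -0.0082 to 0.074, Slco1b2 from -0.003 to 0.049, and for female against male Abcc2 from -0.19 to 0.072, Slc10a1 from -0.25 to 0.047, and for sex difference in the VLC1 response Abcc3 from -0.0201 to 0.82, Abcc4 from -0.042 to 1.58, Slc10a1 from -0.24 to 0.88, Slc22a7 from -0.52 to 0.62, Slco1a1 from -2.55 to 1.25, and for sex difference in the VLC5 response Abcb1a from -0.45 to 0.71, Abcc2 from -0.73 to 0.011, Abcc4 from -0.33 to 1.32, Slc10a1 from -0.67 to 0.48, Slc22a7 from -0.88 to 0.23, Slco1a4 from -0.23 to 0.95, Slco1b2 from -0.75 to 0.015.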
